A study of Mus musculus with 2 samples.

Results

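The genes described here are the neighbors of Erap1 on mouse chromosome 13, chosen by gene symbol because they lie near the targeted gene. They are Cast, Pcsk1, Ell2, Glrx, Rhobtb3, Spata9, Rfesd, Arsk and Ttc37. Of these 9 symbols, 8 are among the 40879 gene symbols of the count files. The remaining symbol, Ttc37, is not listed under that name, and the row Skic3, the current symbol of the same gene from general nomenclature, was read in its place and kept out of all counts of members unless stated.

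RNA of the intestine was compared between wild-type (WT) and ERAP1+/- mice on a C57BL/6 background. The mice were 8 weeks old when assigned to groups, and control groups then drank regular water for 28 days before tissue was taken. The WT library and the library labelled ERAP1+/- are each 1 pool of RNA from 3 mice, so that no value has a replicate check and no p-value is given. The ERAP1+/- mice descend from an embryonic stem cell clone with a tm1a allele of Erap1, from which a Cre strain removed the loxP-flanked exons 6 and 7. The promoter of the Cre strain and the sex of the mice are not given in the sources used here. The labels name no treatment, and the paper describes the RNA comparison as one under steady-state conditions.

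ERAP1 trims peptides in the endoplasmic reticulum before they are loaded on MHC class I molecules. A gene targeted in embryonic stem cells sits among neighbors that do unrelated work, and the readout of these neighbors is one way to look for local effects of an engineered allele. The neighbors of Erap1 share no pathway. They include an inhibitor of calpain proteases (Cast), a processing enzyme of peptide hormones (Pcsk1), a transcription elongation factor (Ell2), a redox enzyme (Glrx), a protein of the Golgi (Rhobtb3), a lysosomal sulfatase (Arsk), a scaffold of the RNA-degrading Ski complex (Ttc37), a protein with an iron-sulfur domain (Rfesd) and a testis gene (Spata9).

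All 9 genes lie on 1 side of Erap1, the distal side. In the GENCODE M21 annotation of GRCm38, Erap1 occupies bases 74639568 to 74693201 of chromosome 13 on the plus strand. Cast comes next, on the minus strand from 74692368 to 74808810, and the 3' ends of both genes overlap by 834 bases. Of 8 protein-coding Cast transcripts, 2 (Cast-207 and Cast-211) reach into Erap1, and the nearest end of the others lies 1041 bases beyond it. The distal end of the deleted exons lies 28145 bases from the 3' end of Cast. Pcsk1 follows at a gap of 397 kb from Erap1, Ell2 at 1014 kb, Glrx at 1147 kb, Rhobtb3 at 1176 kb, Spata9 at 1274 kb, Rfesd at 1308 kb, Arsk at 1367 kb and Ttc37 at 1406 kb.

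Upstream sequences are shown for Pcsk1 and Ell2, which hold a sequence that the windows of the other members lack. Both had higher values in the library labelled ERAP1+/-, but so did Skic3, and the Ttc37 window does not hold it. The stretch between the starts of Arsk and Ttc37 is shown because the genes on its sides differed in their ratios between the libraries. The sequences are RefSeq promoter windows of GRCm38.p6, which cover 250 bases before and 50 after each start. All 9 members matched, with 14 windows. Capitals mark TGACGTCA, the cyclic AMP response element, in Pcsk1 and Ell2, and CGCATGCG, the core of the NRF1 motif, between Arsk and Ttc37. The lines are 5' to 3' on the plus strand. For Ell2 a stretch of 30 bases is given, which lies inside the longest transcript that GENCODE M21 lists for the gene.
Pcsk1, chr13:75089607-75089825: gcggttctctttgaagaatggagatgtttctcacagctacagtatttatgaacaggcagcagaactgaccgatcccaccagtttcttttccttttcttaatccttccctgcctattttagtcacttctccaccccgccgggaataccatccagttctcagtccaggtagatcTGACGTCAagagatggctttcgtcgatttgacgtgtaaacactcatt
Ell2, chr13:75707275-75707304: aagacgagacaTGACGTCAgataagattaa
Arsk and Ttc37, chr13:76098661-76098733: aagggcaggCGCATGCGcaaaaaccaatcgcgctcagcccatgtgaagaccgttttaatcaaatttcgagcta

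The cyclic AMP response element begins 78 bases before the RefSeq start of Pcsk1 and 198 bases before that of Ell2. Among all 32851 windows of this length, 1.79% hold it, and no other member does. The NRF1 core lies 64 bases before the start of Ttc37 and 17 bases before that of Arsk, whose window holds a further copy at 129 bases. It occurs in 1.87% of all windows. Both motifs read the same on both strands and were chosen after the windows were read. Common promoter motifs were searched on either strand. The GC box GGGCGG was in 7 of the 14 member windows (5 of the 9 members), against 35.7% of all windows. CCAAT was in 9 of the 14 (7 members), against 37.4% of all windows. CACGTG was in 3 of the 14 (2 members, Rhobtb3 and Rfesd), against 7.15% of all windows. No member window held TATAAA, which 13.6% of windows do. These are matches of letters, and no binding was measured.

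The libraries held 8114826 (WT) and 8907515 (labelled ERAP1+/-) counted reads. Levels are given in CPM, read counts brought to a common library size with edgeR's trimmed mean method (TMM). Differences are given on the log2(CPM + 1) scale, on which genes with few reads appear closer together than they are. Each read marks the 3' end of a transcript, so that CPM is not divided by gene length, and levels are compared between libraries, not between genes. Ratios are ERAP1+/- over WT with exact 95% intervals that cover counting error only. The targeted gene, Erap1, had 229 reads in WT and 2 in the library labelled ERAP1+/-, which is 0.73% of the WT level (95% interval 0.0878% to 2.67%). A heterozygous mouse keeps an intact allele, so this level goes against the genotype in the label. The reads mark the 3' end, which lies outside the deleted exons, and so do not show the deletion itself. The library is therefore named by its label, and every direction given here is between the library labelled ERAP1+/- and WT. Of 10 markers of intestinal epithelium, all had at least 10 reads over both libraries. Their intervals excluded 1 for 9, with 3 higher and 6 lower in the library labelled ERAP1+/-, against 44.4% of all genes with that many reads. Muc2 (ratio 2.29) and Krt20 (0.433) were called. The summed level of the list was 7631 CPM in WT and 7674 CPM in the library labelled ERAP1+/-. Muc2 alone made up 1547 CPM of the sum in WT and 3541 CPM in the library labelled ERAP1+/-. The near-equal sums therefore do not mean that the other epithelial markers were at equal levels. All 10 suprabasal epidermis markers were lower in the library labelled ERAP1+/- (summed level 2618 CPM in WT and 47.7 CPM in the library labelled ERAP1+/-, with Ivl and Dsc1 at 0 in the library labelled ERAP1+/-), as were all 12 skeletal muscle markers (1251 and 23.4 CPM) and all 8 smooth muscle markers (9547 and 4955 CPM).

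No neighbor of Erap1 differed as Erap1 did. A gene was called where its log2(CPM + 1) values lay more than 2-fold apart and 1 or both of them reached 4. Over all genes past that level, 5.34% were called (428 of 8013). Of the neighbors, 3 passed the level (Cast, Ell2 and Glrx), and 0 were called. Without a filter on low values 0 of the 8 listed members were more than 2-fold apart, and the Skic3 row was not either. The differences ran from -0.67 (Rhobtb3) to 0.64 (Pcsk1) on the log2 scale, against -4.65 for Erap1.

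**Figure D1:**
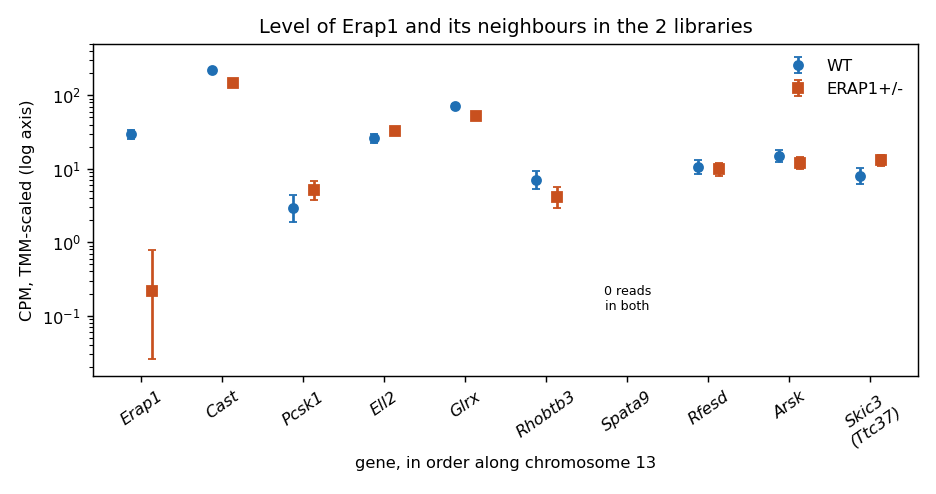
Level of Erap1 and its neighbors in the WT library (circles) and the library labelled ERAP1+/- (squares), in CPM on a log axis, in order along chromosome 13; bars are exact 95% Poisson intervals of the single counts. Erap1 is at 29.5 CPM in WT and 0.215 CPM in the library labelled ERAP1+/-, while for no neighbor are the points more than 2-fold apart.

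Differences below 2-fold were nevertheless larger than counting error for most neighbors. The 95% interval of the ratio excluded 1 for 5 of the 7 members with at least 10 reads over both libraries, 2 higher and 3 lower in the library labelled ERAP1+/-, against 44.4% of all 16142 genes with that many reads (20.6% higher and 23.8% lower). The intervals say nothing of the variation between mice. A set of 7 genes is too small for the share to be read as more than a description. The median log2 difference of the 7 was -0.29, and that of all genes with as many reads was 0.00. Scaling by the total count in place of TMM moved the median of all genes by 0.11 and that of the members to -0.17.

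Cast encodes calpastatin, the endogenous inhibitor of the calcium-dependent calpain proteases, and is the only member whose transcripts overlap Erap1. It had 1702 reads in WT and 1381 in the library labelled ERAP1+/-, or 219 and 148 CPM. Cast was lower in the library labelled ERAP1+/-, with a ratio of 0.678 (95% interval 0.631 to 0.728), the narrowest interval among the members. The log2 difference was -0.56, or -0.43 when scaled by the total count. Of all genes with at least 10 reads, 25.2% had a larger absolute difference. Cast and Erap1 reads come from opposite strands, and whether the counting used strand is not given in the sources used here. Without strand, reads in the shared 834 bases could not be assigned to either gene with certainty. Epidermis and muscle markers were also lower in the library labelled ERAP1+/-, by the summed levels given above. Of the 10 epithelial markers, 6 were lower and 4 higher. The part of all these markers in the Cast value was not tested. In such tissue pools, fewer cells of a type and less RNA per cell cannot be told apart.

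The calpain genes were set beside Cast. Of 10 genes, 8 were lower in the library labelled ERAP1+/- and 2 were higher, or 7 and 3 when scaled by the total count. The interval excluded 1 for 6 of the lower and none of the higher (60.0%). Of all genes with at least 10 reads, 23.8% were lower in this way, and 44.4% differed in either direction. Their median log2 difference was -0.30, and none was called. The ubiquitous calpains, which calpastatin inhibits, had values near that median. Capn1 had 290 and 276 reads in WT and in the library labelled ERAP1+/- (ratio 0.795, 95% interval 0.672 to 0.941). Capn2 had 868 and 823 reads (0.792, 0.719 to 0.872). Capns1, which encodes the small subunit of both, had 2637 and 2382 reads (0.755, 0.714 to 0.798). The extremes of the list were Capn9, a calpain of the digestive tract, with 71 and 101 reads and a log2 difference of 0.23, and Capn3, the muscle calpain, with 14 and 2 reads and -1.21.

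Pcsk1 encodes prohormone convertase 1/3, which cuts precursors of peptide hormones in enteroendocrine cells and neurons. It was higher in the library labelled ERAP1+/-, with 23 reads in WT and 48 in the library labelled ERAP1+/-, or 2.96 and 5.16 CPM. The ratio of 1.74 has a wide interval (1.04 to 3.0) because of the few reads, and its lower bound is close to 1. Both values lie below the level needed for a call. The log2 difference was 0.64, and 20.3% of genes with enough reads had a larger absolute difference.

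The genes of prohormone processing and secretory granules were mostly higher as well, with 9 of 10 higher in the library labelled ERAP1+/-. For 8 of them the interval excluded 1, against 20.6% of all genes with at least 10 reads that were higher in this way. The median log2 difference of the 10 was 0.76. The called genes were Chga and Chgb, the chromogranins of the granule core. Chga had 271 reads in WT and 822 in the library labelled ERAP1+/- (ratio 2.53, 95% interval 2.21 to 2.92), and Chgb had 498 and 1212 (2.03, 1.83 to 2.26). Scg3, which encodes a granin that binds chromogranin A, also lay past 2-fold, with 39 and 108 reads (2.31, 1.59 to 3.43), but below the level needed for a call. Pcsk2, the sister convertase, had 26 and 52 reads, a ratio of 1.67 (1.02 to 2.79) that is close to that of Pcsk1. Pcsk1n, which encodes the inhibitor proSAAS, had 51 and 121 reads (1.98, 1.42 to 2.81). The exception was Cpe, which encodes carboxypeptidase E and had 1321 and 1202 reads, with a log2 difference of -0.39. These directions were the same under total-count scaling, which added Scg2 to the called genes. Enteroendocrine markers moved with Pcsk1: all 9 of 10 with enough reads were higher, and their summed level was 317 CPM in WT and 816 CPM in the library labelled ERAP1+/-. Chga and Chgb stand in both lists. None of the markers was at 0 in either library, and their part in the Pcsk1 value was not tested.

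Ell2 encodes an elongation factor of RNA polymerase II that is known in plasma cells for its role in making the secreted form of immunoglobulin mRNA. It was higher in the library labelled ERAP1+/-, with 202 reads in WT and 305 in the library labelled ERAP1+/-, or 26 and 32.8 CPM. The ratio was 1.26 (1.05 to 1.51), a log2 difference of 0.32. Nearly as many genes lie beyond this difference as within it, since 47.2% had a larger one. Of 8 plasma cell markers 6 were higher in the library labelled ERAP1+/- and 2 lower, with no marker at 0. All 8 intervals excluded 1, against 44.4% of all genes with at least 10 reads. Jchain and Mzb1 were called higher and Prdm1 lower (216 and 99 reads, ratio 0.383). The other lower marker was Sdc1 (0.868). The summed level was 287 CPM in WT and 533 CPM in the library labelled ERAP1+/-. Jchain alone made up 72.2 and 300 CPM of these sums. The higher sum therefore does not mean that the other markers were higher together. The part of these markers in the Ell2 value was not tested.

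The other subunits and partners of the super elongation complex did not share 1 direction. Of 11 genes, 5 were higher and 6 lower in the library labelled ERAP1+/-, and 9 and 2 when scaled by the total count, with a median log2 difference of 0.00. The interval excluded 1 for 4 of them (36.4%, against 44.4% of all genes with at least 10 reads), and none was called. Ell, the paralog of Ell2, was the lowest, with 342 and 239 reads and a ratio of 0.584 (0.493 to 0.691), opposite to Ell2. Mllt1, a reader subunit of the complex, was the highest, with 52 and 133 reads (2.14, 1.54 to 3.0).

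Glrx encodes the cytosolic glutaredoxin, which removes glutathione from protein thiols. It had 550 reads in WT and 484 in the library labelled ERAP1+/-, or 70.8 and 52.0 CPM, and was lower in the library labelled ERAP1+/-. The ratio was 0.735 (0.649 to 0.832), a log2 difference of -0.44, which 34.7% of genes exceeded in size. Related redox genes did not share 1 direction, with 8 of 11 higher and 3 lower, or 9 and 2 under total-count scaling. Their median was 0.06. The interval excluded 1 for 4 of the higher and 2 of the lower (54.5%, against 44.4% of all genes with at least 10 reads). These 2 were the glutaredoxins Glrx2 and Glrx5 (ratio 0.911, 0.831 to 0.998), while Glrx3 was higher (1.14). The lowest was Glrx2, the mitochondrial glutaredoxin, with 389 and 348 reads and a ratio of 0.747 (0.645 to 0.866), close to that of Glrx. The highest was Txnrd2, a mitochondrial thioredoxin reductase, with 24 and 48 reads and a log2 difference of 0.59.

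**Figure D2:**
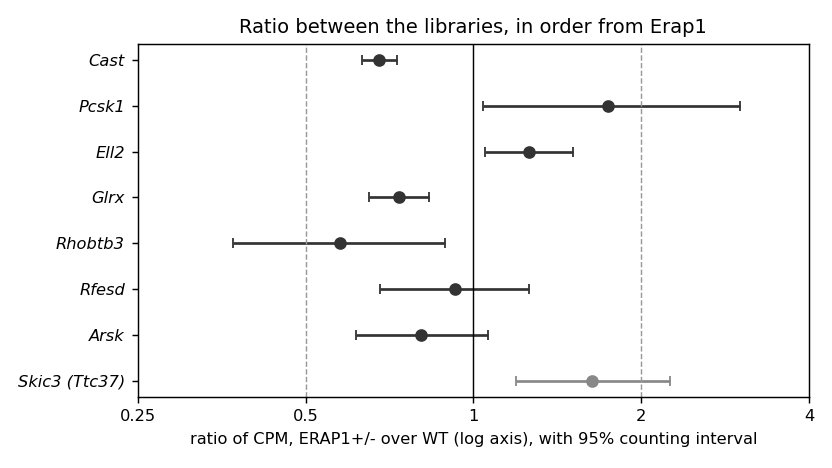
Ratio of CPM in the library labelled ERAP1+/- over WT for each neighbor with reads, on a log axis, with exact 95% counting intervals, from the gene nearest to Erap1 (top) to the farthest; dashed lines mark 2-fold. The points of Pcsk1, Ell2 and Skic3 lie right of 1 and those of the other neighbors left of it, with no point past 2-fold.

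Rhobtb3 encodes an ATPase of the Golgi that works in transport from endosomes with Rab9. It had 55 reads in WT and 38 in the library labelled ERAP1+/-, or 7.08 and 4.08 CPM. With a ratio of 0.577 (0.371 to 0.889) it had the lowest ratio of the members, and its interval was wide. The log2 difference of -0.67 was exceeded in size by 18.8% of genes. In its list of 8 genes, 4 were higher and 4 lower, or 6 and 2 under total-count scaling, and the median was 0.03. Hif1a, which encodes a hypoxia-inducible transcription factor, was the lowest with 888 and 652 reads (log2 difference -0.70), and Rbx1, a RING subunit of cullin ligases, the highest with 383 and 608 (0.40). Rab9 itself had 256 and 305 reads and a ratio of 0.995 (0.840 to 1.18).

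Spata9 is expressed in testis and had 0 reads in both libraries. At this depth 0 reads leave room for a level of up to 3 reads, which is 0.386 CPM in WT and 0.322 CPM in the library labelled ERAP1+/-, and no ratio is given. Of 6 testis markers, 5 were at 0 in both libraries, and the exception, Prm1, had 1 read in WT. Of 10 genes that share the Spata prefix but not a function, 3 had no read in either library. Of the 7 with enough reads, 4 were higher and 3 lower, with a median of 0.19. They ran from -0.53 for Spata7 (66 and 52 reads) to 0.51 for Spata5 (24 and 45).

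Rfesd encodes a protein with a Rieske iron-sulfur domain. It had 83 reads in WT and 92 in the library labelled ERAP1+/-, or 10.7 and 9.89 CPM, a ratio of 0.926 (0.681 to 1.26). A difference was not detectable at this depth, and its sign depended on the scaling, with a log2 difference of -0.10 after TMM and 0.01 when scaled by the total count. Of 5 other iron-sulfur and cytochrome b5 genes with enough reads, 3 were higher and 2 lower, or 4 and 1 under total-count scaling (median 0.14). The highest was Uqcrfs1, the Rieske subunit of respiratory complex III, with 1665 and 2427 reads (0.28), and the lowest Cisd1, of the outer mitochondrial membrane, with 845 and 860 reads (-0.23).

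Arsk encodes a lysosomal sulfatase that takes part in the breakdown of glycosaminoglycans. It had 115 reads in WT and 111 in the library labelled ERAP1+/-, or 14.8 and 11.9 CPM, a ratio of 0.806 (0.616 to 1.06). The interval includes 1. Of 10 sulfatase genes and their activators 4 were higher and 6 lower, or 5 and 5 under total-count scaling, with a median of -0.11. The highest was Arsa, which encodes arylsulfatase A, with 70 and 138 reads (0.66), and the lowest Galns, a sulfatase of keratan sulfate, with 81 and 58 (-0.66).

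Ttc37, read from the Skic3 row, starts 73 bases from Arsk on the other strand, in the sequence printed above. Its product is the scaffold of the Ski complex, which feeds RNA to the cytoplasmic exosome, and loss of the human gene is a cause of a syndrome with severe infant diarrhea. The row had 62 reads in WT and 121 in the library labelled ERAP1+/-, or 7.98 and 13 CPM, a ratio of 1.63 (1.19 to 2.25). It was higher in the library labelled ERAP1+/-, while the interval of Arsk included 1. The reads of Skic3 per read of Arsk were 0.539 in WT and 1.09 in the library labelled ERAP1+/-, a change of 2.02-fold (exact 95% interval 1.33 to 3.09) that does not depend on the scaling of the libraries. The genes of this divergent pair thus differed in their ratios by more than counting error.

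Other genes of the Ski complex and the RNA exosome were mostly higher. Of the 14 in the list, 12 were found with at least 10 reads, and 10 of these were higher and 2 lower, or 11 and 1 under total-count scaling. The median was 0.26, and none was called. The interval excluded 1 for 4, all higher (33.3%). Of all genes with at least 10 reads, 20.6% were higher in this way, and 44.4% differed in either direction. Exosc10, a nuclease of the nuclear exosome, was the highest with 93 and 188 reads (ratio 1.69, 1.31 to 2.19), and Exosc8 the lowest with 209 and 215 (log2 difference -0.21). The Ski complex partners Skiv2l and Wdr61 are likewise not listed under these symbols. The rows Skic2 and Skic8, their current symbols, had 199 and 236 reads (ratio 0.991, 0.817 to 1.20) and 497 and 815 reads (1.37, 1.22 to 1.53).

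**Figure D3:**
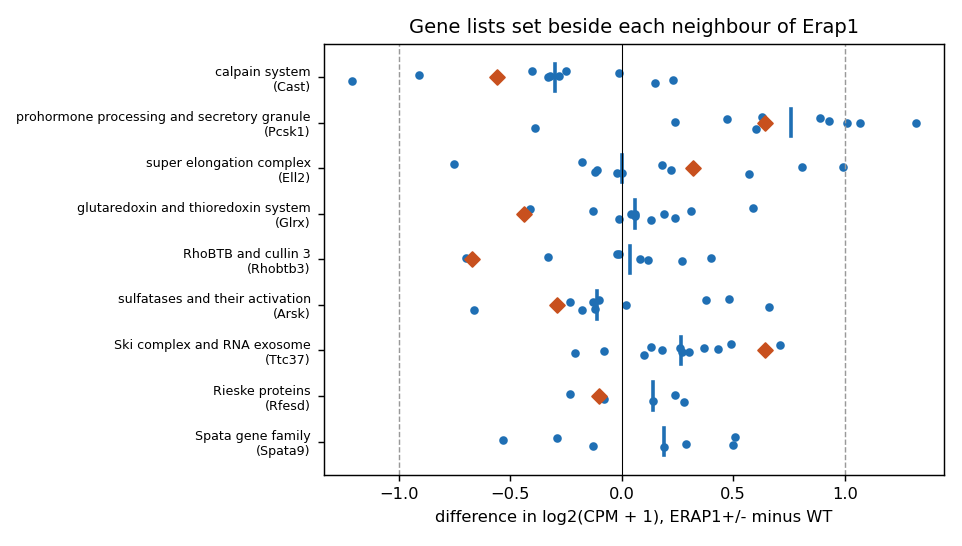
Differences in log2(CPM + 1), ERAP1+/- minus WT, of the genes listed beside each neighbor (dots, genes with at least 10 reads over both libraries; vertical bars, medians) and of the neighbor itself (diamonds; Skic3 for Ttc37, none for Spata9). The prohormone list lies furthest right with a median of 0.76, and the calpain list furthest left with -0.30; dashed lines mark 2-fold.

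The whole neighborhood was read in the same way, since the 9 genes cover only the distal side. Within 2 Mb of Erap1, GENCODE M21 lists 90 other genes, 53 of which have a row by symbol, and 32 had at least 10 reads over both libraries. In the library labelled ERAP1+/-, 15 were higher and 17 lower, or 19 and 13 under total-count scaling. Their median log2 difference was -0.06, and the interval excluded 1 for 16 of the 32. On the distal side the median was -0.21 over 9 genes (3 higher and 6 lower), and on the proximal side it was 0.01 over 23 genes (12 and 11). Of the 9 distal genes, 7 are members described above, and Skic3 (0.64) is not counted in any window. Without the members, the median within 2 Mb was 0.01 over 25 genes (13 higher and 12 lower). The median was -0.06 over the 20 genes within 1 Mb, -0.06 over 42 genes within 5 Mb, 0.13 over 82 genes within 10 Mb and 0.03 over 537 genes of all chromosome 13. The quartiles of the genes within 2 Mb were -0.41 and 0.28, and those of all genes were -0.31 and 0.30.

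Within 2 Mb, 2 of the 16 genes past the level were called, against 5.34% of all genes past it. They were Tppp and Gm15912, both lower in the library labelled ERAP1+/-. Neither is among the 9 neighbors on the distal side. Tppp, which encodes a tubulin polymerization-promoting protein, lies 604 kb on the proximal side (74009407 to 74035753, plus strand). It had 791 reads in WT and 352 in the library labelled ERAP1+/- and was 2.69-fold lower (95% interval 2.37 to 3.06). The noncoding Gm15912 (74008009 to 74009354, minus strand) starts 52 bases from Tppp on the other strand. It had 190 and 47 reads and was 4.84-fold lower (3.50 to 6.81). The reads of Tppp per read of Gm15912 were 4.16 in WT and 7.49 in the library labelled ERAP1+/-, a change of 1.8-fold (1.27 to 2.59), so that the genes of this divergent pair also differed in their ratios by more than counting error. Gm46430, the nearest gene with enough reads on the proximal side at 22 kb, had 23 and 11 reads (ratio 0.399, upper bound 0.853).

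Among genes below the level, Slc9a3, which encodes the sodium-proton exchanger NHE3 of the intestinal brush border, stood apart at 470 kb on the proximal side, with 7 reads in WT and 60 in the library labelled ERAP1+/- (ratio 7.16, 3.27 to 18.6). Irx4, a homeobox gene at 1370 kb, had 15 and 0 reads, with an upper bound of 0.233 for the ratio. Sdha, a subunit of respiratory complex II at 289 kb, had 1511 and 1939 reads and a log2 difference of 0.10. Sdha lies between Erap1 and both Slc9a3 and Tppp, and so does Gm46430, whose interval lay below 1.

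**Figure D4:**
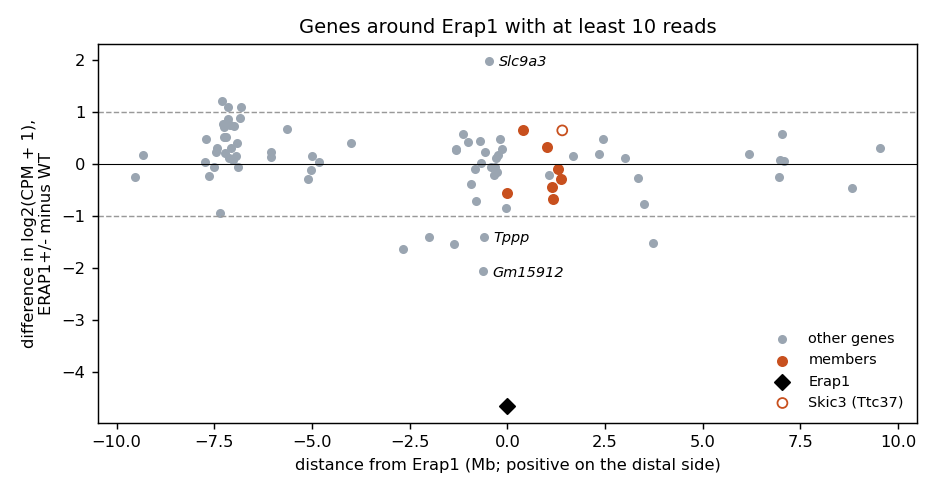
Difference in log2(CPM + 1), ERAP1+/- minus WT, against the distance from Erap1 for genes with at least 10 reads within 10 Mb; filled colored points are the listed neighbors, the open point is Skic3, the diamond is Erap1, and dashed lines mark 2-fold. Erap1 stands alone at -4.65, and within 2 Mb the largest differences of other genes are those of Gm15912 (-2.07) and Slc9a3 (1.97) on the proximal side.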

How the data were processed

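For each genotype 1 library was analysed, made from pooled intestine RNA with a kit that sequences the 3' ends of transcripts (QuantSeq FWD, single-end reads of 75 bp). The authors deposited counts, whole reads per gene symbol without normalization. Their methods name STAR with HTSeq-count and, elsewhere, Bowtie2 with RSEM on GRCm38, as do the submitters' processing notes for the latter, and which made the deposited counts is not stated. Counts on reads shared by overlapping genes depend on that step.

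From the counts, TMM factors (0.958 for WT, 1.04 for the library labelled ERAP1+/-) came from edgeR 4.0.16 (R 4.3.3), and CPM from the adjusted library sizes. A quasi-likelihood test could not be fitted without replicates. The 95% interval of a ratio is the exact conditional binomial interval (scipy 1.17.1), and that of a change in a read ratio is the exact odds ratio interval. Both cover counting error only. Reads without molecular identifiers are not independent molecules, and with 1 pool per genotype the variation between mice is not measured. Rule and intervals were first checked on simulated reads. Gene positions were taken by symbol from GENCODE M21 (GRCm38) and promoter windows from RefSeq (GRCm38.p6).

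The 9 members and the gene lists were chosen with earlier results of these data known. The genes named were the members, Erap1, genes within 2 Mb of it past the 2-fold rule, and of each list those past that rule or else the highest and the lowest with at least 10 reads. Capn1, Capn2, Capns1, Pcsk2, Pcsk1n, Cpe, Scg2, Scg3, Rab9, Skic2, Skic8, Muc2, Krt20, Slc9a3, Irx4, Sdha and Gm46430 were added after their values were seen. The same holds for Jchain, Mzb1, Prdm1, Sdc1, Glrx3 and Glrx5. A list of 8 neutrophil and macrophage markers had 5 higher and 3 lower genes, or 6 and 2 under total-count scaling. The alternatives were size factors from DESeq2 1.42.0, total-count scaling, 0.1 as the pseudocount, TMM without skin, muscle and mitochondrial genes, other minimum reads and a 1.5-fold threshold.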

Additional observations from a re-analysis of the deposited data

How the results depend on the processing

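No paired analysis was possible because only 1 library was made per genotype. Reading Skic3 as Ttc37 and the counts of intervals under other scalings were added after seeing the data. The number of members more than 2-fold apart was 0 under each alternative tried: total-count scaling, size factors from DESeq2, 0.1 as the pseudocount, TMM without skin, muscle and mitochondrial genes, both other filters and with Skic3 included. With a 1.5-fold threshold and the level of 4 kept, it was also 0. Rhobtb3 (-0.67), Pcsk1 (0.64) and Skic3 (0.64) lay more than 1.5-fold apart but below that level. The number of members whose interval excluded 1 was 5 under each scaling, and 6 with Skic3. Scaling by the total count moved the median of the members from -0.29 to -0.17 and that of the genes within 2 Mb from -0.06 to 0.06, and it turned 1 member, Rfesd, to the other sign. The other alternatives left the median of the members between -0.31 and -0.20. Of 32 recomputed differences of the members with reads and Skic3, 1 moved past its counting interval (Cast, to -0.43 with the total count). Over all genes, scaling by the total count called 414, with 166 higher and 248 lower, against 111 and 317 with TMM. Depth limits Pcsk1 and Rhobtb3 most among the members with reads, as their intervals show.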
